A study of Mus musculus with 12 samples.

Results

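The genes of oxidative phosphorylation (OXPHOS) were examined in ribosome-bound and whole-tissue RNA of mouse ventral hippocampus (vHPC). Members were the protein-coding genes of the Gencode vM1 annotation whose symbols begin with Nduf, Uqcr, Cox4 to Cox8 or Atp5, or are Sdha, Sdhb, Sdhc or Sdhd, together with the protein-coding genes of the mitochondrial genome. The rule found 105 of the 37310 annotated genes, 92 in the nuclear genome and 13 in the mitochondrial genome. The symbol rule also took in 4 genes that are not subunits of these complexes (Cox4nb, Atp5s, Atp5sl and Atp5l-ps1) and 4 assembly factors of complex I. These count among the nuclear members in the totals below and stand apart in the counts by complex. Cox7a2l, a factor that joins complexes III and IV, was not set apart and is counted with the subunits of complex IV.

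OXPHOS is carried out by 5 complexes of the mitochondrial inner membrane. Complexes I to IV pass electrons from NADH and succinate to oxygen and, except for complex II, pump protons, and complex V uses the proton gradient to make ATP. Most subunits are encoded in the nucleus, translated on cytosolic ribosomes and imported, whereas a small set is encoded by the mitochondrial genome and translated inside the organelle on mitochondrial ribosomes, which have their own proteins and their own rRNAs. Neurons depend heavily on this pathway to pay for ion pumping and synaptic transmission.

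TRAP (translating ribosome affinity purification) pulls cytosolic ribosomes out of chosen cells by a tagged ribosomal protein, and input is RNA of the same tissue before the pull-down. All mice, WT and KO, carried a Cre-dependent GFP fusion of L10a, a protein of the large cytosolic ribosomal subunit, at Rosa26, and received HSV-Cre in nucleus accumbens (NAc), from which the virus travels back to neurons that project there. KO mice were homozygous for a floxed FosB allele and WT mice were littermates without it, so the same Cre was to switch on the tag and, in KO mice, to delete FosB. Tissue was taken 3 weeks later, the labels give C57BL/6 as the strain and 3 mice per pool in one field and 3 to 4 in another, and no age is stated for these mice. Each genotype had 3 pools, numbered 1 to 3 in WT and 2 to 4 in KO, and each pool gave 1 TRAP and 1 input library, 12 libraries in all. The study removed FosB to ask which genes it controls in these neurons, and TRAP set against input shows which transcripts the tagged ribosomes carry.

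The deposited values were raw counts, with 3416030 to 5614089 counts on genes per library. Levels are given as CPM, the usual depth-scaled count, corrected by TMM, a factor that corrects for library composition, and 3 counts stood at 0.534 to 0.878 CPM before that scaling. A gene was called where the adjusted p of edgeR's quasi-likelihood test, corrected over all genes tested, was under 0.05. Fosb itself was measured at 32.0 to 45.3 CPM over the WT TRAP libraries and 18.8 to 29.4 CPM over the KO ones, without overlap, and every KO input library was likewise below every WT input library. The fitted level in KO was 1.70-fold lower in TRAP (edgeR, adjusted p = 0.337) and 1.60-fold lower in input (adjusted p = 1.00). Most of the whole-gene count thus remained in both fractions. In the paper, the floxed allele loses only part of its exons, and whole-gene counts do not separate these from the exons that stay. The paper reports that FosB expression was almost absent from KO TRAP RNA. It also reports fewer tagged neurons with ΔFosB, a protein of this gene, in KO. Loss of the floxed exons was not tested here. The labels call the tissue hippocampal neurons, yet the summed markers of astrocytes reached 1701 to 2085 CPM in input and 275 to 355 CPM in TRAP, and those of glutamate neurons 4439 to 5054 and 5173.7 to 5700.2 CPM. The WT input library of pool 1 had counts on 15678 genes, against 17255 to 18090 in the other inputs.

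The mitochondrial genes are shown first with the sequence feature that bears on their counts. Reads with several places in the genome were set aside by the counting, and parts of the mitochondrial genome also lie, as copies, in nuclear chromosomes. To see which genes this touches, stretches of 75 bases, about the length of a read, were taken from the exons of every member and looked for elsewhere in mm9 with up to 2 mismatches. The first pair below is a stretch of mt-Atp6, a subunit of the proton channel of complex V, at chrM:8232-8306 on the plus strand, and the same letters at chr1:24621111-24621185 on the minus strand, inside the annotated gene Gm10925. The second pair is a stretch of mt-Cytb, the only mitochondrially encoded subunit of complex III, at chrM:15035-15109, and its copy at chr4:79650783-79650857, both on the plus strand. All are written 5′ to 3′ on mm9, and capitals mark the bases at which a pair differs, which are T34C and C37T counted from the first base, mitochondrial base first.
mt-Atp6, mitochondrial genome: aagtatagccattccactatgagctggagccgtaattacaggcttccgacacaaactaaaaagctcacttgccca
mt-Atp6, copy on chromosome 1: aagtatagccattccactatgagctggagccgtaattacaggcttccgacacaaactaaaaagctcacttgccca
mt-Cytb, mitochondrial genome: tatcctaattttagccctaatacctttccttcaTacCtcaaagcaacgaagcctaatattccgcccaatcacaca
mt-Cytb, copy on chromosome 4: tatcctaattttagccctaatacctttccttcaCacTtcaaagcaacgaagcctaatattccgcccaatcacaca

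Every stretch of mt-Atp6, mt-Atp8 and mt-Nd4l was found letter for letter inside another annotated gene, and these are the 3 mitochondrial genes of lowest counts. mt-Nd4l, a small membrane subunit of complex I, had 0 counts in all 12 libraries. mt-Atp6 had 31 to 67 counts per input library and mt-Atp8 had 100 to 282. By contrast, mt-Nd1, a membrane subunit of complex I none of whose stretches was found elsewhere, had 2881 to 6140 counts per input library. An identical copy did not always go with low counts. Every stretch of mt-Co2 and mt-Co3, subunits of complex IV, also had an identical copy, but 22.1% and 0% of these lay in another annotated gene, and both genes kept 2125 or more counts in each input library. Whether the copies set the counts of these genes was not tested.

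All 12 mitochondrial genes with counts were far lower in TRAP than in input. In input, mt-Co1, the catalytic subunit of complex IV, stood at 1878, 3029 and 2579 CPM in WT and at 3321, 2847 and 2664 CPM in KO. In TRAP it stood at 23.7, 46.4 and 50.6 CPM in WT and at 84.2, 39.1 and 56.3 CPM in KO. No TRAP library came near any input library, and the log2 ratio over both genotypes was −5.80 ± 0.28 (SE), a 55.7-fold lower level (edgeR, adjusted p = 4.0e-07). mt-Nd1 ranged from 9.45 to 38.3 CPM over the 6 TRAP libraries and from 839 to 1457 CPM over the 6 inputs, at a log2 ratio of −5.91 ± 0.32. mt-Cytb ranged from 10.9 to 52.6 CPM in TRAP and from 1282 to 2425 CPM in input, at −6.26 ± 0.38. The 3 genes had log2 ratios within 1 unit of each other. Of their stretches, 82.7% in mt-Co1, 3.74% in mt-Cytb and 0% in mt-Nd1 had another place in the genome. The part of shared sequence in the ratios was not tested.

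Over the 12 genes tested all 12 were called lower, where 22.5% of the 13214 genes tested were called lower in TRAP, with a median log2 ratio of −6.12, against −0.01 for all genes tested. Leaving out mt-Atp6, the other 11 lay between −6.33 and −5.80, from 80.4-fold to 55.7-fold lower. mt-Atp6 had 1 count in the 6 TRAP libraries together and 277 in the 6 inputs, a ratio of 269 with a 95% Poisson interval of 48.3 to 10640 that covers counting error only. With mt-Atp6 set at its count ratio the median remained −6.12. All 12 genes were also called lower in each genotype alone, where 13.1% of genes in WT and 15.9% in KO were called lower.

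**Figure D1:**
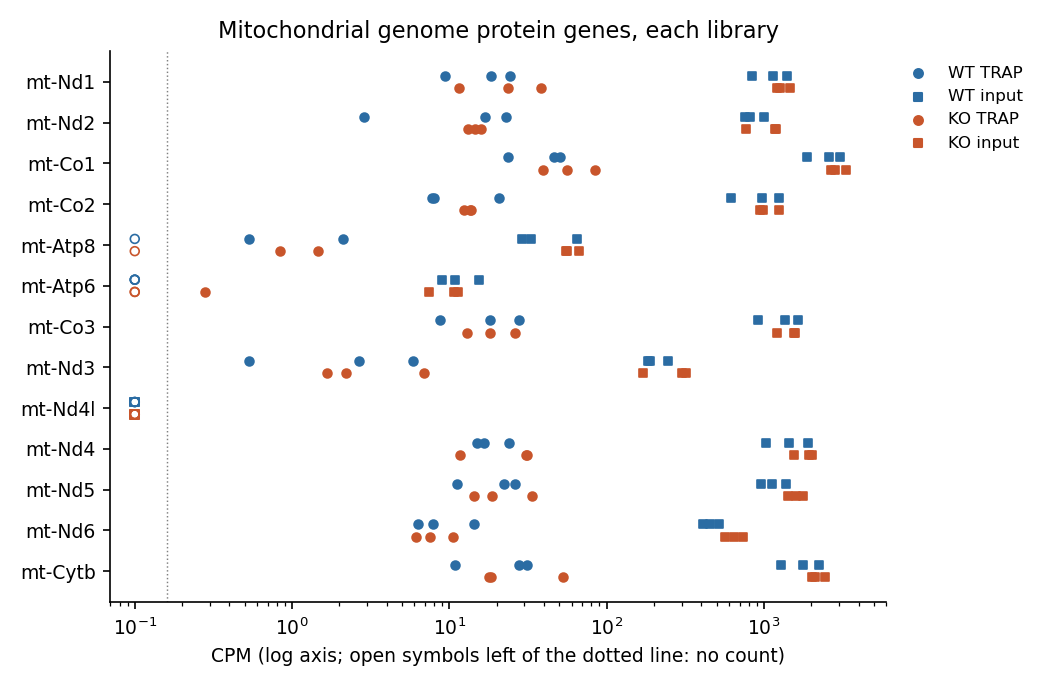
CPM of the 13 mitochondrial genome protein genes in each of the 12 libraries, on a log axis, in the order of the genes along the genome. Circles are TRAP and squares input, blue is WT and orange KO, and open symbols at the left edge had no count. In each gene with counts the TRAP libraries lie below all input libraries, and among the inputs mt-Atp6 and mt-Atp8 lie below the other genes with counts.

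The relative order of the mitochondrial genes was much alike in the 2 fractions. mt-Co1 made up 19.5% to 21.7% of the counts on the 13 genes over the 6 inputs and 21.3% to 27.6% over the 6 TRAP libraries. mt-Cytb made up 14.4% to 16.0% in input and 8.63% to 17.2% in TRAP. Across the 13 genes the mean shares in TRAP and input had a Pearson r of 0.977 and a Spearman rho of 0.978, given as a description, since the genes share libraries and read lengths. The other RNAs of the mitochondrial genome were lower too. The rRNAs mt-Rnr1 and mt-Rnr2 had log2 ratios of −6.84 ± 0.33 and −7.21 ± 0.46, and all 7 tRNAs tested were called lower, at a median of −6.57. Summed over proteins, rRNAs and tRNAs, the mitochondrial genome gave 5.29% to 9.05% of an input library and 0.0305% to 0.130% of a TRAP library, with the highest TRAP share in KO pool 2 and the lowest in WT pool 1.

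The nuclear genes went the other way. Of the 83 tested, 63 were called higher in TRAP, where 19.6% of all genes were called higher, 2 were called lower and 18 were not called. Their median log2 ratio was 0.39, a 1.31-fold higher level, and 79 of 83 were above 0. Of the 76 that are subunits, 62 were called higher, at a median of 0.43. The summed level of all 92 nuclear members was 15044 to 19473 CPM in TRAP and 11293 to 13162 CPM in input, so the ranges did not overlap. It was higher in TRAP in all 6 pools, by 1.23-fold, 1.48-fold and 1.46-fold in WT pools 1 to 3 and by 1.28-fold, 1.32-fold and 1.44-fold in KO pools 2 to 4. In the same pools the summed mitochondrial genes were 90.2-fold, 67.7-fold, 55.1-fold, 52.5-fold, 102-fold and 59.1-fold lower. For the nuclear genes, a different mix of cells and a different level per cell cannot be told apart in such samples.

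**Figure D2:**
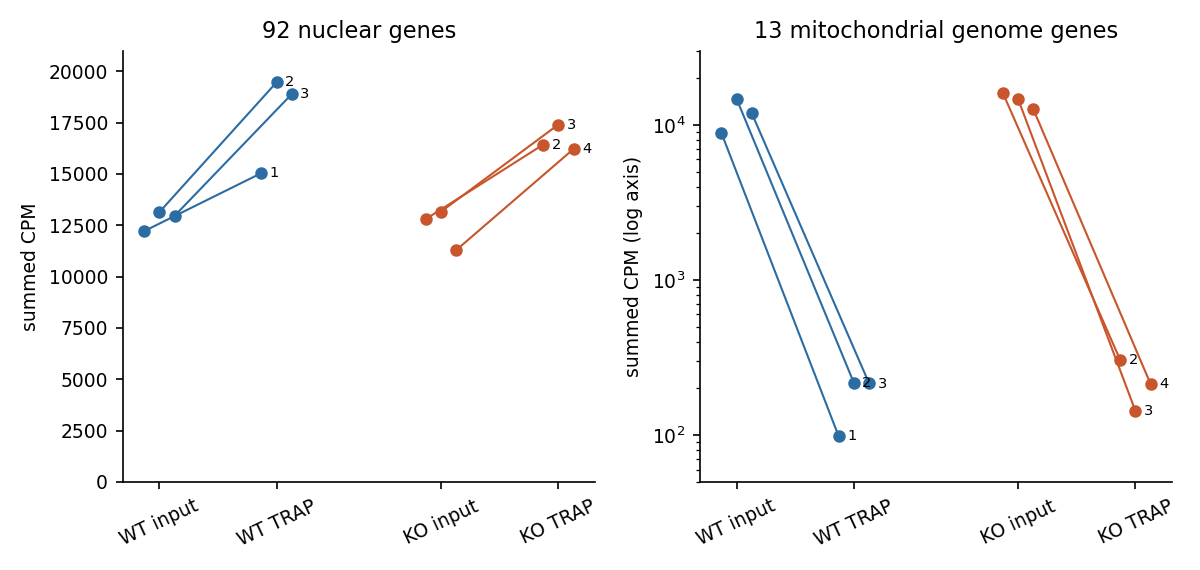
Summed CPM of the 92 nuclear and of the 13 mitochondrial genome OXPHOS genes in the input and TRAP library of each pool, joined by a line and numbered by pool. The nuclear sum is higher in TRAP than in input in all 6 pools (linear axis from 0), and the mitochondrial sum is 52.5-fold to 102-fold lower (log axis).

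Of the 15 nuclear genes of complex V, 13 were called higher, and their median log2 ratio, 0.59, was the highest among the 5 complexes. Atp5b, the catalytic beta subunit, stood at 1195, 1232 and 1254 CPM in WT input and at 1510.3, 1847 and 1739 CPM in WT TRAP. In KO it stood at 1195, 1209.6 and 1137 CPM in input and at 1539, 1640.5 and 1454 CPM in TRAP. Every TRAP library was above every input library, at a log2 ratio of 0.43 ± 0.06 (edgeR, adjusted p = 1.5e-06). Atp5a1, the alpha subunit, had a larger ratio of 0.70 ± 0.07, with 1163 to 1505 CPM in TRAP and 705 to 893 CPM in input. Atp5g3, one of the genes for the c ring through which protons turn the enzyme, stood at 0.89 ± 0.11, from 140.3 to 214 CPM in input and 255 to 369.9 CPM in TRAP. The largest log2 ratio of any member, 1.20 ± 0.16, was that of Atp5l, the g subunit, with 23.0 to 38.5 CPM in input and 48.4 to 101 CPM in TRAP, but 94.3% of its stretches had another place in the genome. The 2 genes of complex V not called were Atp5e (0.32, adjusted p = 0.0593) and Atp5k (0.15, adjusted p = 0.286).

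Complex I, which takes electrons from NADH, had 31 of its 37 tested nuclear subunits called higher, 6 of 7 core subunits and 25 of 30 accessory ones. Ndufb6, an accessory membrane subunit, stood at 43.8 to 65.4 CPM in TRAP and 11.9 to 30.9 CPM in input, with no overlap and a log2 ratio of 1.00 ± 0.16, and 7.69% of its stretches had another place. The lowest input value was that of WT pool 1. Ndufa7 stood at 0.91 ± 0.12, with 48.3% of its stretches found elsewhere. Not every abundant subunit was higher. Ndufb9, another accessory subunit, ran from 185 to 239 CPM in TRAP and from 173 to 239 CPM in input, at −0.02 ± 0.09. Its 95% interval, −0.19 to 0.15, leaves out the median of the nuclear genes. Of the 4 complex I assembly factors, which help build the complex but are not part of it, only Ndufaf2 was called, at 0.52 ± 0.13.

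All 8 genes of complex III, which passes electrons from quinol to cytochrome c, were called higher, with log2 ratios from 0.30 to 0.65. Uqcrc1, a core protein, ran from 259 to 336 CPM in TRAP and from 192 to 244 CPM in input, without overlap, at 0.45 ± 0.07. Uqcrq, a small subunit, ran from 231 to 321 and from 171 to 218 CPM, at 0.61 ± 0.08. Complex II, which is also an enzyme of the citric acid cycle and has no mitochondrially encoded subunit, had 2 of 4 genes called. Sdha, the flavoprotein, ran from 439.9 to 498 CPM in TRAP and from 353 to 388 CPM in input, at 0.34 ± 0.06, and Sdhb, the iron-sulphur subunit, from 173 to 227 and from 100.2 to 159.6 CPM, at 0.50 ± 0.09. Sdhc and Sdhd, the membrane anchors, stood at 0.28 and 0.29 with adjusted p of 0.0752 and 0.0926.

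Of the 12 genes of complex IV, cytochrome c oxidase, that could be tested, 8 were called higher, 2 were called lower and 2, Cox5b and Cox7c, were not called, at a median log2 ratio of 0.35. Several of its subunits exist as a form found in most tissues and as a second form of muscle, lung, testis or other tissues. The 7 ubiquitous forms on the list (6 of complex IV, and Ndufa4, long counted with complex I and now placed with complex IV) were all called higher, at 0.34 to 0.75. Cox4i1 stood at 325, 397 and 384 CPM in WT input and 427, 572 and 587 CPM in WT TRAP. In KO it was at 375, 365 and 313 CPM in input and at 505, 487 and 474 CPM in TRAP. Every TRAP library was above every input library, at a log2 ratio of 0.50 ± 0.08. Of the 8 tissue-restricted forms, among them Ndufa4l2, the counterpart of Ndufa4, 7 were too low to test, with at most 13 counts in any library, and Cox8c had none. The remaining one, Cox6a2, known as the form of heart and skeletal muscle, was called lower. It stood at 5.24, 4.36 and 11.9 CPM in WT input and at 7.13, 8.68 and 6.56 CPM in KO input. In TRAP it stood at 0, 0.471 and 1.60 CPM in WT and at 1.68, 0.977 and 2.45 CPM in KO, where no library reached the lowest input. The log2 ratio was −2.80 ± 0.48 (edgeR, adjusted p = 3.0e-05). GABA neuron markers moved the same way, with 9 of 10 called lower at a median of −1.72. So did astrocyte, oligodendrocyte and microglia markers, with all 10 of each called lower at medians of −2.98, −3.42 and −3.55. The summed level of the GABA neuron markers ran from 881 to 1045 CPM in input and from 182 to 653 CPM in TRAP, with the highest TRAP value in KO pool 2. The part of any of these cell types in the value of Cox6a2 was not tested.

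The other nuclear member called lower was Cox7a2l, a factor that joins complexes III and IV, at −0.37 ± 0.11 (edgeR, adjusted p = 0.0079), with 33.5 to 53.1 CPM in TRAP and 54.6 to 65.3 CPM in input. Of its stretches, 75.8% had another place in the genome, and without KO pool 2 it was no longer called (adjusted p = 0.0666).

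**Figure D3:**
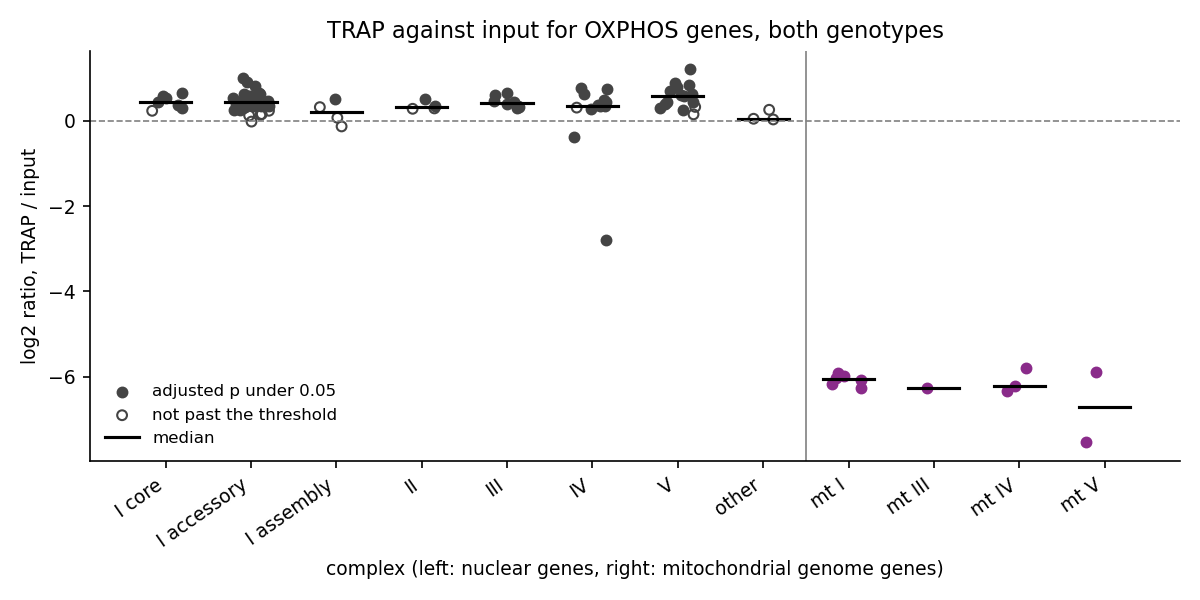
Log2 ratio of TRAP to input over both genotypes for the 95 OXPHOS genes tested, 1 point per gene, by complex, with the median as a bar. Filled points passed an adjusted p under 0.05. Nuclear genes lie mostly between 0 and 1, with Cox6a2 at −2.80, and mitochondrial genome genes lie at −5.80 or below.

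Shared sequence and gene length were compared with the ratio. Of the 51 nuclear genes with under 10% of their stretches elsewhere, 37 were called higher, at a median of 0.38, and of the other 32, 26 were, at a median of 0.41. OXPHOS subunits are short proteins. Of the 47 members with coding sequences under 500 bases, 36 were called higher at a median of 0.44, and of the other 1040 genes tested in that length class 21.7% were called higher at a median of 0.09. Across the 83 members the ratio had a Spearman rho of −0.12 with coding length, and across 12448 protein-coding nuclear genes −0.16, again as a description over genes that share libraries.

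Other genes of the organelle and of energy metabolism give the setting. Of the proteins of the mitochondrial ribosome, 52 of 75 were called higher and none lower, at a median of 0.46. The proteins of the cytosolic ribosome, also short and abundant, had 14 of 82 called higher and 10 lower, at a median of −0.00. Pyruvate dehydrogenase and citric acid cycle genes had 14 of 16 called higher and 1 lower, at 0.35, and glycolysis genes likewise 14 and 1 of 16, at 0.63, with Aldoa, fructose-bisphosphate aldolase, at 0.84 ± 0.05. Of 27 other electron transport and assembly genes, 8 were called higher, at a median of 0.13. Of 18 genes of mitochondrial biogenesis and of mitochondrial DNA expression, 1 was called higher and 5 lower. Ppargc1a, the coactivator PGC-1α that drives OXPHOS gene transcription, was at −0.61 ± 0.10 (edgeR, adjusted p = 1.2e-05). In the same comparison all 10 astrocyte, all 10 oligodendrocyte and all 10 microglia markers were called lower, at medians of −2.98, −3.42 and −3.55, and 4 of 10 glutamate neuron markers were called higher, at 0.21. The part of cell composition in the OXPHOS ratios was not tested.

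In each genotype alone the picture was the same in direction. In WT, 45 nuclear members were called higher, where 11.8% of genes were, and 1 lower, and in KO 50 were called higher, where 13.2% were, and 1 lower. The WT count depended on the pools, with 62 without pool 1, 28 without pool 2 and 18 without pool 3, and the KO count was 26 without pool 4. Calls over all genes changed too. In WT, 1512 of 12583 genes were called higher without pool 1, 778 of 12486 without pool 2 and 479 of 12554 without pool 3. In KO, 725 of 12568 genes were called higher without pool 4. With all pools, the nuclear member called lower in WT and in KO was Cox6a2. With the pool as a block, which pairs the libraries of the same mice, 2 nuclear members were called lower in WT.

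Since most nuclear members were higher in TRAP, their promoters were searched for binding motifs of factors known to regulate OXPHOS genes. RefSeq promoters on GRCm38.p6, 250 bases before to 50 after the start, were matched for 74 of 91 nuclear symbols. The NRF1 core, GCGCNTGCG on either strand, was in 25 of the 74 (33.8%), against 15.5% of the promoters of 9029 genes tested here and 7.12% of those of all 27025 genes. The YY1 core, AAGATGGCG, was in 8 (10.8%), against 3.53% and 1.64% in the same order, and the GABPA core of the ETS family, CCGGAAG, in 17 (23.0%), against 19.0% and 9.93%. The AP-1 motif that FosB dimers bind, TGANTCA, was in 7 (9.46%), against 5.66% and 8.97%. These are matches of letters, not binding sites, and overlaps between motifs were not removed. Windows of 60 bases upstream of the start are shown for the genes of complexes II and V and of complex I described above, with the motif in capitals, on GRCm38.p6. The windows lie at chr13:74350303-74350362, chr9:44920933-44920992 and chr4:40279612-40279671, all on the minus strand, and the motifs begin 97, 241 and 232 bases before the start. Only 1 match is in capitals in each: Sdha held further NRF1 matches at 54 and 9 bases before the start, and the Atp5l window also holds a GABPA match, at 212 bases, left in lower case.
Sdha, NRF1 core: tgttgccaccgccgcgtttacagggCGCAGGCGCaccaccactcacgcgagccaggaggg
Atp5l, NRF1 core: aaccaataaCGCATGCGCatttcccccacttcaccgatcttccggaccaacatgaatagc
Ndufb6, GABPA core: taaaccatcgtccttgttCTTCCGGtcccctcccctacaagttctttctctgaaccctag

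No OXPHOS gene passed the threshold between KO and WT in TRAP. Of 82 nuclear and 10 mitochondrial members tested, 0 were called by edgeR, where 0.0682% of 11727 genes were called, and 0 by DESeq2. At an unadjusted p under 0.05, 8 nuclear members were lower in KO, where 3.37% of genes were, and 0 were higher, where 2.68% were. The values were nevertheless mostly a little below those of WT. The median log2 ratio of KO to WT was −0.08, with 66 of 82 below 0 (62 of the 75 subunits), against −0.00 for all genes tested, and all 15 genes of complex V and 10 of 11 of complex IV were below 0. This depended on the WT pools. WT TRAP pool 1, the deepest library, had the lowest nuclear OXPHOS level of all TRAP libraries and stood 0.25 log2 units below the WT mean, while the 3 KO libraries stood 0.02 to 0.10 below it. Without WT pool 1 the median was −0.20, with 75 of 82 below 0 and 29 at an unadjusted p under 0.05. In that fit 995 of 12057 genes had an unadjusted p under 0.05 in either direction, against 709 of 11727 with all pools. Without WT pool 2 the nuclear median was −0.00, with 41 below 0, and without WT pool 3 it was −0.02.

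The gene of smallest p was Ndufa3, an accessory subunit of complex I at chr7:3568975-3571765 (mm9). Fosb, the gene floxed in KO mice, is also on chromosome 7, and the part of this linkage in the values of Ndufa3 was not tested. Its WT TRAP libraries held 120.1, 166 and 163 CPM, and its KO TRAP libraries 92.3, 107 and 111 CPM. All KO libraries were below all WT libraries, at a log2 ratio of −0.53 ± 0.13 (edgeR, unadjusted p = 0.00048, adjusted p = 0.236), and without WT pool 1 it was called (−0.67, adjusted p = 0.0099), as it was in all pools with no filter beyond 1 count (adjusted p = 0.0111). In input, too, its KO libraries were below all WT libraries, with 118, 141 and 135 CPM in WT and 108, 102 and 76.1 CPM in KO, at −0.46 ± 0.14 (unadjusted p = 0.0037, adjusted p = 1.00 by edgeR). The input and TRAP libraries came from the same mice, so the fractions are not independent. No stretch of Ndufa3 was found elsewhere in the genome.

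Uqcrfs1, the Rieske iron-sulphur protein of complex III, had KO values below WT in TRAP but not in input. The WT TRAP libraries held 140.1, 157 and 158 CPM and the KO TRAP libraries 116, 119 and 106 CPM, without overlap, at −0.41 ± 0.11 (edgeR, unadjusted p = 0.0012, adjusted p = 0.337). In input it stood at 87.3, 100.4 and 95.9 CPM in WT and at 94.3, 102 and 104 CPM in KO, with the groups overlapping, at 0.08 ± 0.13. The difference of the genotype change between TRAP and input was −0.49 ± 0.16, with an unadjusted p of 0.0056 and an adjusted p of 1.00 by edgeR. Ndufs8, an iron-sulphur core subunit of complex I, had 112, 125 and 134 CPM in the WT TRAP libraries and 90.9, 107 and 95.5 CPM in the KO ones, at −0.34 ± 0.12 (adjusted p = 0.714). With Ndufaf2 and Uqcrc1, these were the 5 of 82 nuclear members (6.10%) whose KO TRAP libraries all lay below all WT ones, where 6.12% of all genes did. None of the 82 had all KO libraries above all WT ones, where 5.74% of all genes did. Such 3 against 3 comparisons cannot give an exact permutation p below 0.1.

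**Figure D4:**
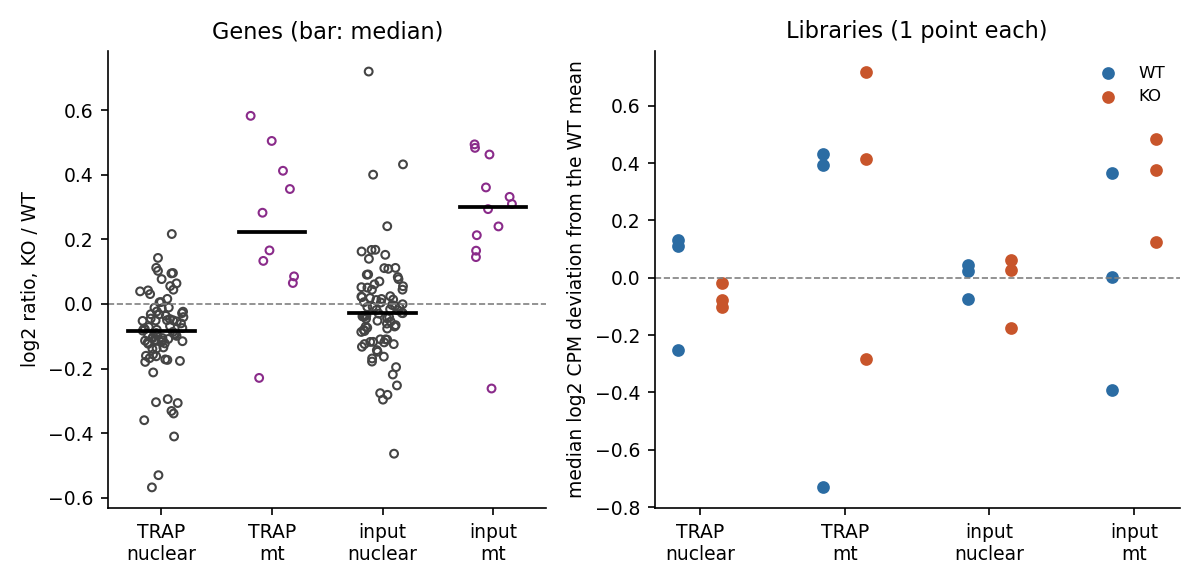
Left, log2 ratio of KO to WT for each nuclear and mitochondrial (mt) OXPHOS gene tested in TRAP and in input, with the median as a bar. Right, the median deviation of these genes from the WT mean log2 CPM in each library, blue for WT and orange for KO. The nuclear medians are −0.08 in TRAP and −0.03 in input, the mitochondrial ones 0.22 and 0.30, and the libraries of the genotypes overlap in each of the 4 sets.

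The mitochondrial genes tended to be higher in KO, with the genotypes overlapping for all but mt-Nd6 and mt-Nd5 in input. In TRAP, 9 of 10 were above 0, at a median of 0.22. mt-Co1, with the values above, was at 0.58 ± 0.40 and mt-Nd4, another membrane subunit of complex I, at 0.41 ± 0.33 (adjusted p of 0.905 and 0.909 by edgeR). The TRAP levels here were low, with mt-Co1 at 133 to 197 counts in each WT library, and without WT pool 1 only 3 of 10 were above 0, at a median of −0.12. Of the stretches of mt-Nd4, 61.7% had another place in the genome. In input, 11 of 12 were above 0, at a median of 0.30, and 0 of 12 mitochondrial and 0 of 83 nuclear members were called by edgeR, where 0.0312% of 12816 genes were called, or by DESeq2. At an unadjusted p under 0.05, mt-Nd6, mt-Nd5 and Ndufaf1 were higher in KO, where 1.41% of genes were, and Ndufa3 and Ndufa5 were lower, where 1.48% were. Without WT pool 2, 10 of the 12 mitochondrial members had an unadjusted p under 0.05. In that fit 665 of 13213 genes did so in either direction, against 371 of 12816 with all pools. The nuclear median in input was −0.03.

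mt-Nd6, the only protein gene of the other strand of the mitochondrial genome, stood at 409, 521 and 455 CPM in WT input and at 649, 733 and 568 CPM in KO input. mt-Nd5 stood at 959, 1378 and 1128 CPM in WT and at 1763, 1598 and 1411 CPM in KO. In both, every KO library was above every WT library, at 0.49 ± 0.12 and 0.46 ± 0.12 (edgeR, unadjusted p of 0.00044 and 0.0014, adjusted p of 0.499 and 0.912). Both were called with no filter beyond 1 count (adjusted p of 0.0137 and 0.0142) and with the replicate number as a block (0.0275 and 0.0438), although that number pairs no mice between genotypes. They were the 2 of 12 mitochondrial members that did not overlap, where 4.2% of all genes lay wholly above, and the nuclear ones wholly above were Ndufab1 and Ndufaf1. The nuclear ones wholly below were Ndufa3 and Ndufs3, where 4.18% of genes were. mt-Nd5 (chrM:11742-13565) and mt-Nd6 (chrM:13552-14070) overlap at their ends on opposite strands, 19.4% and 22.5% of their stretches had another place in the genome, and the strand setting of the counting is not given in the sources used here. In TRAP the same genes overlapped between the genotypes, with mt-Nd6 at 7.84, 6.36 and 14.4 CPM in WT and 7.55, 6.11 and 10.5 CPM in KO. Choroid plexus markers, of an epithelium outside the neurons, summed to 273 CPM in the input of KO pool 4, against 8.90 to 75.1 CPM in the other inputs. That library had the lowest mt-Nd6 and mt-Nd5 of the KO inputs, and the part of these cells in the input values was not tested.

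No member passed the test for a genotype change that differed between the fractions. In the fit of all 12 libraries 0 of 83 nuclear and 0 of 12 mitochondrial members were called by edgeR for the difference of the KO to WT ratio between TRAP and input, where 0.00757% of 13214 genes were called, and 0 by DESeq2. At an unadjusted p under 0.05 there were 2 (Uqcrfs1 and Ndufa4, both lower), where 2.71% of genes passed in either direction. The interval of single values shows what these data could not resolve. For Atp5b, the most abundant nuclear member, the KO to WT log2 ratio in TRAP was −0.14, with a 95% interval from −0.30 to 0.03, and for mt-Co1 it ran from −0.20 to 1.37.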

How the data were processed

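RNA of 12 libraries (WT and KO, TRAP and input, 3 pools each) was sequenced from total RNA kits of the stranded SMARTer type. Per the study's methods, reads were mapped to mm9 with TopHat and assigned to Gencode vM1 genes by HTSeq-count. The authors deposited raw counts per library, not normalized. The strand setting of the counting and the tool versions are not given in the sources used here. The test was that of edgeR 4.0.16 under R 4.3.3 (filterByExpr, TMM, robust quasi-likelihood), with p adjusted by the Benjamini-Hochberg method over all genes tested in a comparison. A standard error is the log2 ratio divided by the root of its F statistic, and intervals are 1.96 standard errors. CPM are TMM-scaled over the 12 libraries, and pool ratios used log2(CPM + 0.5). P-values measure the spread between the libraries of a group, each from 1 pool. The main fits of TRAP against input had no pool block, so they did not use the pairing of libraries from the same mice. Stretches of 75 bases, taken every 5 bases from the longest transcript of each member, were aligned to mm9 with minimap2 2.31. Samples were grouped by genotype, fraction and pool number of the labels. The test was also run on simulated counts, with no filter beyond 1 count and so not with the filter of the reported fits. Its outcome is not given here.

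The genes named were the 13 mitochondrial ones, the 2 most abundant nuclear subunits of each complex, of the nuclear members called between TRAP and input the 4 of largest ratio in each direction (only 2 nuclear members were called lower), for KO against WT the 3 members of smallest p among those higher and among those lower, the tissue-restricted and ubiquitous isoforms, and the 2 most abundant genes of other lists. Some genes that the rule takes are not reported here. Ndufaf2, Ndufab1, Atp5e, Atp5k, Cox5b, Cox7c, Sdhc and Sdhd were added once values were known. The members and lists were chosen with earlier results of these data known. A TRAP and an input library of the same number came from the same mice, so the number pairs them. Their deviations from the group means correlated at 0.058 to 0.106, and those of unlike numbers at −0.101 to −0.005. Between genotypes the numbers 2 and 3 mark different mice. Alternatives were RLE, total counts, other count filters, leaving out mitochondrial genes, no robust dispersion, DESeq2 1.42.0, a fit of all 12 libraries, the replicate block, members of unshared sequence, and leaving out each pool.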

Additional observations from a re-analysis of the deposited data

How the results depend on the processing

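All 170 medians recomputed under the alternatives moved by less than the spread (1 SD) between replicates, which does not keep a sign: the mitochondrial median between KO and WT in TRAP went from 0.22 to −0.12 without WT pool 1. Of single genes, 642 values kept direction and call, 6 gained a call, 1 lost it and 5 turned sign. Of the counts of calls, 235 stayed within 1.5 times and 18 did not, and of the counts of genes above or below 0 or of unadjusted p under 0.05, 432 stayed and 90 did not. With only members of under 10% shared sequence, counts were smaller because fewer genes enter: over both genotypes 37 nuclear genes higher, 1 lower and 2 mitochondrial genes lower, in WT 27 nuclear higher and 2 mitochondrial lower, and in KO 28 and 2. Leaving out 1 pool gave 54 to 70 nuclear genes higher and 1 to 2 lower over both genotypes, 18 to 62 higher in WT, 26 to 49 higher in KO, and 0 to 1 called between KO and WT in TRAP (Ndufa3, without WT pool 1). Over all genes, those called higher in these fits ranged from 479 to 1512 in WT and from 725 to 1416 in KO. DESeq2 called 62 nuclear genes higher over both genotypes, 42 in WT and 46 in KO.

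With the replicate block, 66 nuclear genes were higher over both genotypes, 49 in WT and 56 in KO, and 2 were lower in WT, as in the fit of all 12 libraries, which also gave 2. Between genotypes the number pairs no mice. There the block called 2 mitochondrial genes in input (mt-Nd6, adjusted p = 0.028, and mt-Nd5, adjusted p = 0.044) and turned mt-Nd4 in TRAP to −0.019, and the median of the mitochondrial genes there to −0.06. With no filter beyond 1 count, edgeR called 1 nuclear gene in TRAP (Ndufa3, adjusted p = 0.011) and 2 mitochondrial genes in input (mt-Nd6 and mt-Nd5), and the cause was not tested. Ndufb9 between TRAP and input turned from −0.02 to 0.0065 with total counts, and without WT pool 1, KO pool 2 or KO pool 3, and ran from −0.103 to 0.0573 as each pool was left out. The mitochondrial protein genes took 1.42% of all gene counts and 1.62% of protein-coding counts in KO input. In TRAP, mt-Atp6 and mt-Atp8 had few counts, at most 9 in a library, and mt-Co1 had 133 to 301.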
